A study of Homo sapiens with 9 samples.

Results

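The kinesin motor genes of OVCAR4 cells were followed through knockdown of MPZL3. OVCAR4 is an established line of high-grade serous ovarian cancer. A gene was taken as a kinesin where its annotated biotype was protein-coding and its symbol was KIF or KIFC followed by a number and at most 1 letter, which gave 42 of the 58735 genes in the count table and did not use any measured value. By their known work in the cell 14 members were placed with the mitotic motors, 13 with the motors of cargo transport and 15 in a remaining class that holds motors of cilia, microtubule-end regulators and motors of mixed or unsettled function. The 9 poly-A RNA-seq libraries fell into 3 groups of 3: cells carrying a scrambled shRNA (scr control), cells carrying shMPZL3 #1, and cells carrying shMPZL3 #2. All 3 groups had been transduced with pLKO.1 virus and selected with puromycin, so the controls shared the vector and the drug, and each culture was a selected pool in which knockdown may differ from cell to cell. The comparisons asked how the kinesin genes stood after loss of MPZL3, a predicted cell adhesion molecule, with both shRNAs grouped against the scr control, with each shRNA singly, and between the shRNAs.

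Kinesins are ATP-driven motors that walk along microtubules or take their ends apart. Mitotic kinesins push spindle poles apart, align chromosomes on the spindle and build the central spindle at which the cell divides, and many of them are made mainly in the G2 and M phases of the cell cycle, so that dividing cells carry most of their RNA. Transport kinesins, such as kinesin heavy chains of the KIF5 family and the heterodimers that KIF3A forms with KIF3B or KIF3C, carry vesicles, organelles and proteins toward the cell periphery and are present in cells that do not divide.

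Library totals ran from 15040102 to 27835841 counts, and kinesin genes took 0.243% to 0.296% of them. The target itself was lowered: MPZL3 stood at 536, 611 and 587 normalized counts in the scr control, at 119, 143 and 123 with shMPZL3 #1, and at 284, 380 and 271 with shMPZL3 #2. Normalized counts are counts brought to the mean effective library size, and fold changes and adjusted p values come from edgeR's quasi-likelihood test over 16928 genes unless another test is named. The log2 fold change of MPZL3 was -2.17 ± 0.16 (SE) with shMPZL3 #1 and -0.89 ± 0.15 with shMPZL3 #2, and the difference between the shRNAs was 1.28 ± 0.16 with an adjusted p of 5.72e-05. The label of the cells was checked against marker genes. The 7 markers of serous ovarian carcinoma were all detected and their summed level lay between 864 and 1118 RPKM (counts scaled to library size and to the kilobases of exon of the gene), although WT1 had only 3 to 13 counts a library. Among 4 leukocyte markers CD3E, CD68 and LYZ had at most 4 counts in any library, and PTPRC had 4 to 26. Summed fibroblast markers were low in every group, at 2.71 to 3.53 in the scr control, 5.37 to 8.09 RPKM with shMPZL3 #1 and 5.77 to 7.09 with shMPZL3 #2. Summed neuron markers lay at 4.83 to 5.53, 9.02 to 14.05 and 5.49 to 7.96 RPKM in the same order. MAP2 (638 to 3183 counts a library) made up most of that sum, with mean levels of 4.05, 11.1 and 3.76 RPKM. SNAP25 had 54 to 253 counts a library, SYT1 0 to 38 and STMN2 0 throughout. Summed mesothelial markers lay at 47.4 to 49.4, 31.0 to 45.1 and 43.2 to 67.9 RPKM. Nearly all of it was UPK3B (1679 to 3599 counts a library), with MSLN at 46 to 100 counts and CALB2 at no more than 5. Summed endothelial markers lay at 1.01 to 1.29, 0.891 to 1.11 and 1.79 to 2.21 RPKM. Most of it was CDH5 (50 to 200 counts a library) and VWF (67 to 151), with PECAM1 at 3 to 18. The mean level of CDH5 was 0.67, 0.53 and 1.39 RPKM in the same order of groups. The part of these markers in the kinesin results was not tested.

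In the scr control the family was led by KIF20A, a motor of the central spindle, at 70.0 ± 7.46 RPKM (SD, n = 3). KIF5B, the widely used heavy chain of conventional kinesin, came next at 54.9 ± 1.12. KIFC1 at 39.4 ± 1.88, KIF4A at 35.2 ± 3.29, KIF11 at 33.9 ± 1.56, KIF2C at 32.7 ± 0.45, KIF22 at 32.7 ± 1.85 and KIF1C at 30.7 ± 1.87 followed, and each of these stood no farther from its neighbour in the order than the sum of their SDs. KIF23 at 21.3 ± 1.35 was separated from KIF1C by more than that. KIFC2 at 15.1 ± 2.32 and KIF3B at 15.1 ± 0.51 could not be ordered. Of the 10 members with the highest level per length, 7 were mitotic, 2 were transport motors and 1, KIFC2, was in the remaining class.

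The low-count filter passed 38 of the 42 members: 12 of 14 mitotic, 13 of 13 transport and 13 of 15 others. KIF2B had 0 counts in all libraries, and KIF25 and KIF6 had 14 and 15 counts over all libraries. KIF4B, a copy of KIF4A without introns, had 56, and reads of the pair may have been split between them. KIF17, a motor known from neurons and cilia, passed with only 4 to 33 counts a library, and KIF5A and KIF5C, the KIF5 heavy chains of neurons, with 14 to 43 and 22 to 59.

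Promoter windows were read because genes of the late cell cycle are known to share short elements there: the cell cycle genes homology region, or CHR, and the CCAAT box bound by the factor NF-Y. RefSeq windows of 300 bases on GRCh38.p14, from 250 bases before to 50 bases after the start site, were matched by symbol for 34 of the 42 members, with no window for KIF13B, KIF5A, KIFC2, KIFC3, KIF26B, KIF21B, KIF27 and KIF19. The CHR was searched as TTTGAA or TTCGAA and the CCAAT box as CCAAT, each on both strands. CHR letters were found in the windows of 11 of 14 mitotic kinesin genes, 1 of 11 transport genes and 1 of 9 others, against 19.5% of all 27305 genes with a window, and in 16.4% of all 35116 windows. CCAAT letters were found for 11 of 14, 4 of 11 and 3 of 9 genes, against 39.7% of all genes, and 10 of 14 mitotic genes had a window with both, against 7.85% of all genes. KIF2C and KIF2B had neither in their windows. Such matches describe the letters of a window and are not measured sites.

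The windows of 5 genes show the contrast, with the letters of a CHR or a CCAAT box on either strand in capitals and each window written 5′ to 3′ along its gene. KIF23 and KIF14 are mitotic genes with both elements close together, KIF20A is the highest mitotic gene and has 2 CCAAT boxes and no CHR letters, KIF3C is the transport gene that rose and has neither, and KIF5B is the 1 transport gene with both, its CHR beginning at base -140 and its CCAAT box at base -59 from the start site.
KIF23 at chr15:69414099-69414398, plus strand: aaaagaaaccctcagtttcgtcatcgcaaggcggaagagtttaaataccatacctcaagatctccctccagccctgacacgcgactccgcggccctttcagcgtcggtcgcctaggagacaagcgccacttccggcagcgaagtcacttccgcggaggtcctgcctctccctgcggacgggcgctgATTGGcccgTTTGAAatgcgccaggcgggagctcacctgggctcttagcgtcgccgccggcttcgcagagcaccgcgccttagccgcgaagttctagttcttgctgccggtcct
KIF14 at chr1:200620702-200621001, minus strand: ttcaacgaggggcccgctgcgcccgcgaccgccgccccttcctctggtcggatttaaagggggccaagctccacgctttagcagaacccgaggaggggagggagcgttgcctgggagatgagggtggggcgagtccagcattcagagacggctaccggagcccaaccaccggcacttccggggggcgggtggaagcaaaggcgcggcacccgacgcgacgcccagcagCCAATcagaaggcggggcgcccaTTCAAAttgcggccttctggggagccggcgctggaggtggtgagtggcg
KIF20A at chr5:138178862-138179161, plus strand: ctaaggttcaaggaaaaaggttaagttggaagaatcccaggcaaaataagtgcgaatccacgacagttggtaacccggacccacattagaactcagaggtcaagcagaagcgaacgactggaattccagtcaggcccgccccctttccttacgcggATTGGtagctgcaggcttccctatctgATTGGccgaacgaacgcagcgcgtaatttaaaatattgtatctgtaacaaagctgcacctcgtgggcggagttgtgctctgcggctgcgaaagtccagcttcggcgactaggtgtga
KIF3C at chr2:25982448-25982747, minus strand: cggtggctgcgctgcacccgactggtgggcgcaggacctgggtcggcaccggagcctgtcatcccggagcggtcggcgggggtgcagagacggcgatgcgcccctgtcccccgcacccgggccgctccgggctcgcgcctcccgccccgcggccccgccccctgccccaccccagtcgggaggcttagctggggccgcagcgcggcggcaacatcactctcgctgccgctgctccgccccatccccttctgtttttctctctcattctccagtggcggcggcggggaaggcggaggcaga
KIF5B at chr10:32056376-32056675, minus strand: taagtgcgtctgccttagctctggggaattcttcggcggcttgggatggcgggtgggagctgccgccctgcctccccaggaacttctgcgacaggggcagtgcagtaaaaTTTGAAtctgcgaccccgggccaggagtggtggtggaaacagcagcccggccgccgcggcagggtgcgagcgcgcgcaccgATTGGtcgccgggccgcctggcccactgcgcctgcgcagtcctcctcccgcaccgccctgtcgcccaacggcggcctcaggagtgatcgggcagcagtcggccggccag

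In KIF23 the CCAAT box began at base -64 and the CHR at base -55 from the start site, and in KIF14 they began at bases -22 and 2. In the 10 mitotic windows with both, every CCAAT box began upstream of the CHR.

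**Figure D1:**
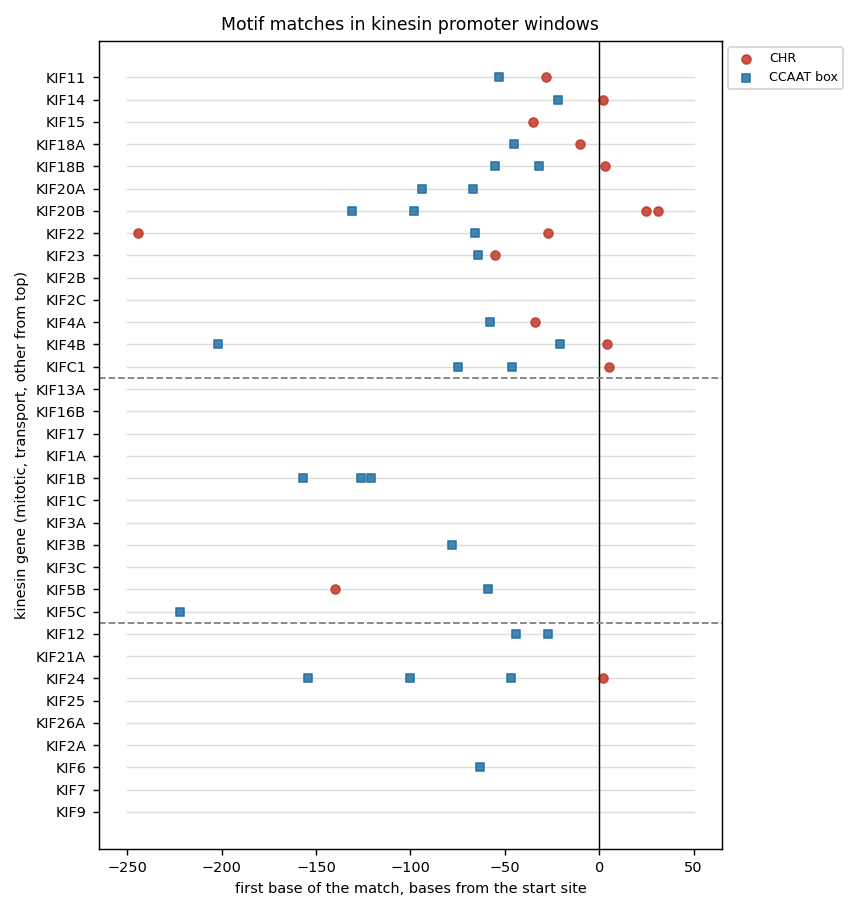
Position of CHR and CCAAT box letters in the promoter windows of 34 kinesin genes, in bases from the start site (0 line), with mitotic, transport and other genes from top to bottom; where a gene had more than 1 window their matches are drawn on 1 line. CHR letters appear in 11 of 14 mitotic genes and in KIF5B and KIF24 below them.

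Mitotic kinesins were lower after MPZL3 knockdown, and transport kinesins as a class were not. With both shRNAs grouped, 8 of the 12 mitotic members fell and 0 rose, against 6.40% of all tested genes called lower and 9.36% called higher, and the median log2 fold change of the 12 was -0.49 (range -0.65 to -0.29). All 12 values were below 0, and in 9 of the 12 every knockdown library lay below every control library, against 11.0% of all genes. Over the whole family 10 of 38 were called in either direction, against 15.8% of all genes. In the transport class 0 of 13 fell and 1, KIF3C, rose, and the median was -0.01 (range -0.30 to 1.31), with 1 lower and 2 higher at an unadjusted p under 0.05, and DESeq2 called 0 lower and 1 higher. In the remaining class 0 of 13 fell and 1, KIF21B, rose, with a median of 0.19. The median over all genes was 0.02. No member of the mitotic class changed by as much as 1 on the log2 scale in any comparison. The number of mitotic calls changed when single libraries were left out. It was 2 of 13 without scr control replicate 1, 0 of 12 without scr control replicate 2 and 2 of 13 without scr control replicate 3. Without shMPZL3 #1 replicate 1 it was 5 of 12, and a total of 13 includes KIF4B. The mitotic median was -0.53, -0.47 and -0.49 without scr control replicates 1, 2 and 3. Without scr control replicate 2, 8 of the 12 were still lower at an unadjusted p under 0.05 and the smallest adjusted p was 0.0580, while the calls over all genes went from 2667 to 962.

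Each shRNA singly gave the same direction for the mitotic motors and different extents. With shMPZL3 #1 all 12 fell, against 15.3% of all genes called lower, with a median of -0.67 and no overlap with the controls in any of the 12 (22.8% of all genes), and the count was 12 under every alternative run. With shMPZL3 #2 4 fell, KIF20A, KIF23, KIF20B and KIF14, against 5.80% of all genes, with a median of -0.33, and all 12 values were again below 0, without overlap in 9 (17.6% of all genes). Over the family 19 of 38 were called with shMPZL3 #1 and 8 of 38 with shMPZL3 #2, against 32.0% and 15.2% of all genes. The same 4 were the mitotic members called with both shRNAs singly, against 3.53% of all genes. At an unadjusted p under 0.05, 8 of the 12 were lower with shMPZL3 #2, and DESeq2 called 7. The 4 calls became 2 without scr control replicate 1, 0 without scr control replicate 2, 1 without scr control replicate 3, 1 without shMPZL3 #2 replicate 1, 0 without shMPZL3 #2 replicate 3 and 7 without shMPZL3 #1 replicate 3. Both single comparisons used the same 3 control libraries. The group means of all 12 were highest in the scr control, then shMPZL3 #2, then shMPZL3 #1.

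**Figure D2:**
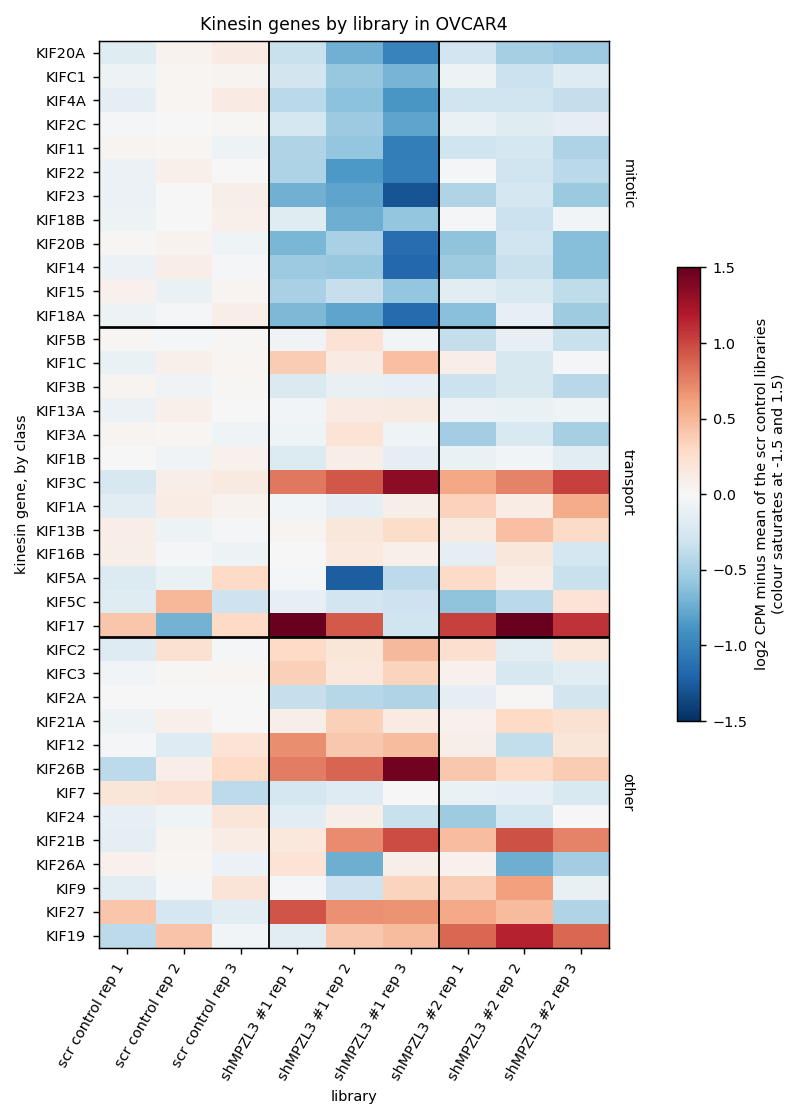
Difference of each library from the mean of the 3 scr control libraries in log2 CPM (colour), CPM being counts scaled to library size, for the 38 tested kinesin genes (rows, by class) in the 9 libraries (columns). The mitotic rows are below the control mean in all 6 knockdown libraries and lowest in shMPZL3 #1 replicate 3 for 11 of 12, while KIF3C is above it in all of them.

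Several mitotic motors build the central spindle and complete cytokinesis. KIF23 (ENSG00000137807, chromosome 15, 69414246 to 69448427), the motor of the centralspindlin complex, had 2705, 2866 and 3067 normalized counts in the scr control, 1739, 1657 and 1166 with shMPZL3 #1, and 2101, 2391 and 1950 with shMPZL3 #2. The 3 groups did not overlap with one another. Its log2 fold change was -0.65 ± 0.17 grouped (adjusted p 0.0206), -0.92 ± 0.13 with shMPZL3 #1 (adjusted p 8.49e-05) and -0.42 ± 0.13 with shMPZL3 #2 (adjusted p 0.0366). KIF20A (ENSG00000112984, chromosome 5, 138178719 to 138187715), which brings the chromosomal passenger complex to the central spindle, had 5015, 5870 and 6188 in the scr control, 4483, 3440 and 2834 with shMPZL3 #1, and 4657, 4020 and 3898 with shMPZL3 #2. Every knockdown library lay below every control, and both shRNAs overlapped. The grouped log2 fold change was -0.55 ± 0.14 (adjusted p 0.0206). Left out in turn, scr control replicates 1, 2 and 3 put the grouped adjusted p of KIF23 at 0.0683, 0.0746 and 0.0780, and replicates 2 and 3 that of KIF20A at 0.0878 and 0.0899. With shMPZL3 #2 KIF23 was at 0.0571, 0.0976 and 0.113 when scr control replicate 1, 2 or 3 was left out, and at 0.0950 and 0.187 when shMPZL3 #2 replicate 1 or 3 was.

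KIF14, which recruits citron kinase to the midbody, stood at 1480, 1680 and 1548 normalized counts in the scr control, at 1077, 1056 and 691 with shMPZL3 #1 and at 1080, 1247 and 1003 with shMPZL3 #2, a grouped log2 fold change of -0.61 ± 0.14 (adjusted p 0.0128). For KIF20B, a motor needed for the last steps of cytokinesis, the values were 1775, 1821 and 1686, then 1097, 1255 and 793.5, then 1159, 1431 and 1130, with -0.62 ± 0.14 (adjusted p 0.0115). In both genes knockdown and control libraries did not overlap, and shMPZL3 #1 replicate 3 was the lowest of all. KIF4A, a chromosome-bound motor that limits microtubule growth in the central spindle, gave 2954, 3326 and 3562, then 2476, 2126 and 1788, then 2668, 2655 and 2548, with -0.46 ± 0.13 (adjusted p 0.0271). Exact two-sided permutation tests on log2 CPM gave 0.0119 for KIF14, KIF20B and KIF4A, the smallest p that 6 against 3 libraries allow, and 0.0238 for KIF23 and KIF20A. The adjusted p passed 0.05 for KIF14 when scr control replicate 2 was left out (0.0723), for KIF20B when replicate 1 or 2 was (0.0588 and 0.0580) and for KIF4A when replicate 1, 2 or 3 was (0.0632, 0.100 and 0.113).

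Other mitotic motors set up the bipolar spindle. KIF11, also called Eg5, slides antiparallel microtubules apart and is the target of the monastrol class of inhibitors. It had 3490, 3460 and 3206 normalized counts in the scr control, 2475, 2269 and 1654 with shMPZL3 #1 and 2757, 2821 and 2450 with shMPZL3 #2. No knockdown library reached the controls, and the grouped log2 fold change was -0.49 ± 0.14 (adjusted p 0.0300). KIF15, which can share the work of KIF11 in holding the spindle open, had 656, 588 and 646, then 448, 496 and 422, then 557, 537 and 484, with -0.36 ± 0.11 (adjusted p 0.0444). Its groups of control and knockdown libraries did not overlap either, but the lowest control and the highest knockdown library stood closer than 1 SD of a group. Its grouped call was lost in 9 of the 15 alternatives run: with no low-count filter (adjusted p 0.0883), with the replicate block (0.0580), and when scr control replicate 1, 2 or 3 (0.177, 0.0957 and 0.135), shMPZL3 #1 replicate 1, 2 or 3 (0.0977, 0.0552 and 0.0710) or shMPZL3 #2 replicate 3 (0.0813) was left out. That of KIF11 was lost when scr control replicate 1, 2 or 3 (0.126, 0.110 and 0.0670) or shMPZL3 #1 replicate 1 (0.0533) was left out. KIFC1, a minus-end motor that focuses spindle poles, was called with shMPZL3 #1 alone, at -0.50 ± 0.11 (adjusted p 0.00259), against -0.19 ± 0.11 (adjusted p 0.272) with shMPZL3 #2.

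Among the motors of chromosome alignment KIF18A, which damps chromosome movements at the metaphase plate, was the only 1 called in the grouped comparison. It stood at 585, 607 and 661 normalized counts in the scr control, at 385, 357 and 277 with shMPZL3 #1 and at 399, 567 and 425 with shMPZL3 #2. The replicate 2 library of shMPZL3 #2 came close to the controls, and the grouped log2 fold change was -0.62 ± 0.17 (adjusted p 0.0273), with adjusted p values of 0.0882, 0.0885 and 0.0970 when scr control replicate 1, 2 or 3 was left out and 0.0525 when shMPZL3 #1 replicate 1 was. KIF2C, also called MCAK, takes microtubule ends apart at centromeres, and its values were 2419, 2450 and 2486, then 2034, 1686 and 1414, then 2280, 2157 and 2240. It fell with shMPZL3 #1 by 0.52 on the log2 scale (SE 0.11, adjusted p 0.00235), against -0.14 ± 0.11 (adjusted p 0.447) with shMPZL3 #2. KIF22, a motor bound to chromosome arms, had 2726, 3052 and 2905, then 2094, 1587 and 1424, then 2830, 2352 and 2183, with -0.77 ± 0.13 (adjusted p 0.000386) for shMPZL3 #1 and -0.24 ± 0.13 (adjusted p 0.243) for shMPZL3 #2. KIF18B, which acts on astral microtubules, fell with shMPZL3 #1 by 0.48 (SE 0.13, adjusted p 0.0102) and was at -0.12 ± 0.13 (adjusted p 0.578) with shMPZL3 #2. Exons of KIF20A, KIF4A, KIF18A and KIF23 share between 1.31% and 3.51% of their bases with any 1 expressed gene on the opposite strand, from which reads of libraries without strand cannot be told apart.

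Within the shMPZL3 #1 group replicate 3 was the lowest library for 11 of the 12 mitotic members, and the lowest of all 9 libraries for the same number. The median difference of the 12 from the control mean was -0.46, -0.60 and -1.01 in its replicates 1, 2 and 3, and -0.29, -0.30 and -0.44 across the shMPZL3 #2 libraries from the highest to the lowest. Without shMPZL3 #1 replicate 3 the median log2 fold change with shMPZL3 #1 was -0.51, with 12 called.

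General markers of dividing cells moved with the mitotic kinesins. Of the 50 tested G2/M genes of the Seurat list that are not kinesins, 35 fell and 0 rose in the grouped comparison (median -0.58), 48 fell with shMPZL3 #1 and 26 with shMPZL3 #2, against 6.40%, 15.3% and 5.80% of all genes called lower, and 4 kinesins had been on that list. Of 42 S phase genes 16, 34 and 10 fell in the same order, against the same shares of all genes, and 0 rose. The median difference of the G2/M genes from the control mean ran from -1.04 to -0.52 in the shMPZL3 #1 libraries and from -0.56 to -0.35 in those of shMPZL3 #2, beside -1.01 to -0.46 and -0.44 to -0.29 for the mitotic kinesins. In bulk RNA fewer cells in mitosis and less kinesin RNA per mitotic cell cannot be told apart, and the part of the cell cycle in these results was not tested.

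Proteins that work with mitotic motors followed a like course. Of 20 such genes, of which 11 are also on the G2/M list, 11 fell and 0 rose in the grouped comparison (median -0.48), 17 fell with shMPZL3 #1 and 7 with shMPZL3 #2, against 6.40%, 15.3% and 5.80% of all genes. RACGAP1, the partner of KIF23 in centralspindlin, went from 3430 ± 130 (SD, n = 3) normalized counts in the controls to 2347 ± 339 and 2694 ± 203 under shMPZL3 #1 and shMPZL3 #2, a grouped log2 fold change of -0.44 ± 0.11 (adjusted p 0.0191). TPX2, a spindle assembly factor that binds KIF11, went from 8671 ± 123 to 5480 ± 1102 and 6965 ± 191 (-0.48 ± 0.14, adjusted p 0.0315). CENPE, itself a kinesin of the kinetochore whose symbol lies outside the KIF series, went from 1969 ± 172 to 1231 ± 309 and 1412 ± 237 (-0.58 ± 0.15, adjusted p 0.0245). PRC1, which bundles the microtubules on which KIF4A and KIF20A act, was counted at only 36.1 ± 2.28, 23.3 ± 16.2 and 26.3 ± 0.85, and 57.6% of its exon bases lie in another annotated gene, so its value (-0.54 ± 0.36, adjusted p 0.339) is uncertain.

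**Figure D3:**
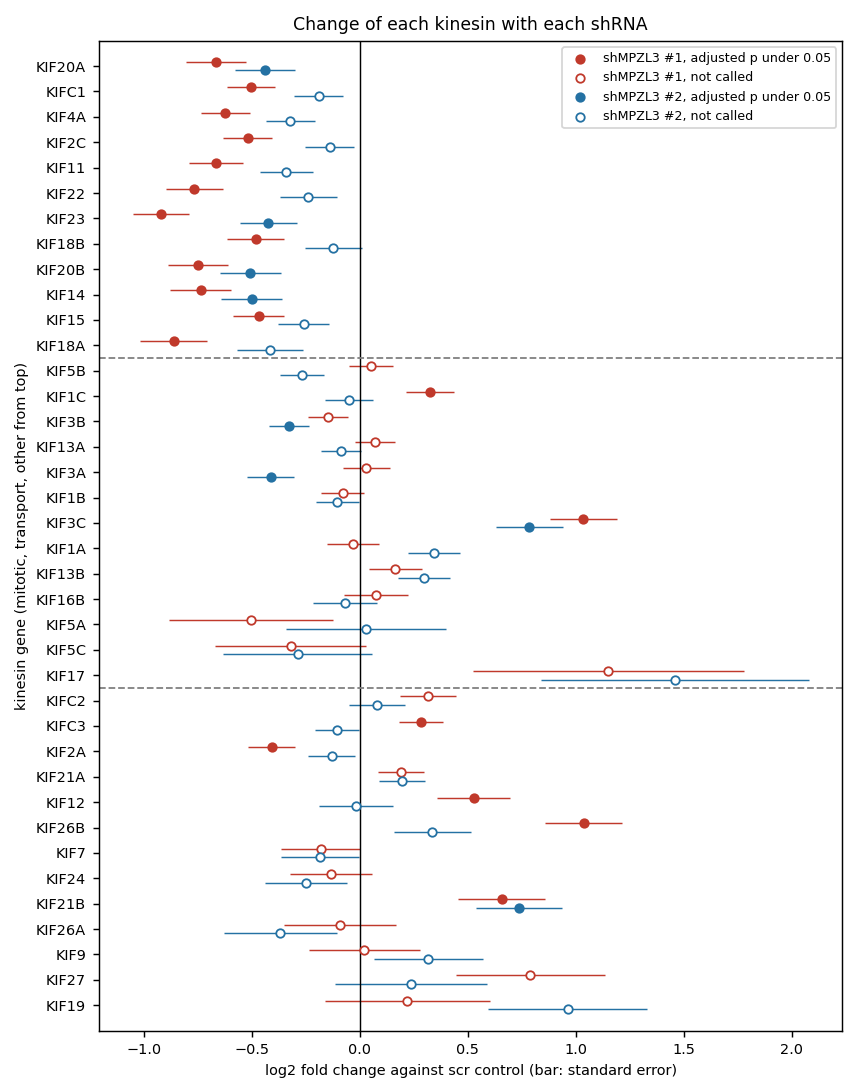
Log2 fold change of 38 kinesin genes with shMPZL3 #1 (red) and shMPZL3 #2 (blue) against the same scr control libraries, with the standard error as a bar and filled points where the adjusted p was under 0.05. All 12 mitotic genes lie left of 0 for both shRNAs with shMPZL3 #1 farther left, and KIF3C and KIF21B lie right of 0 for both.

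The median of the transport class stayed near 0, with single members called in either direction and a difference between the shRNAs. With shMPZL3 #1 0 of 13 fell and 2 rose, KIF1C and KIF3C, against 15.3% and 16.8% of all genes, and the median was 0.05. DESeq2 called the same numbers, and at an unadjusted p under 0.05 they were 0 and 2. With shMPZL3 #2 2 fell, KIF3A and KIF3B, and KIF3C rose, against 5.80% and 9.36% of all genes, and the median was -0.07. For shMPZL3 #2 DESeq2 called 3 lower and 1 higher, and at an unadjusted p under 0.05 the numbers were 3 and 4. The 2 higher calls with shMPZL3 #1 made up 15.4% of the class. Knockdown libraries lay above all controls for 2 of 13 with shMPZL3 #1, against 23.9% of all genes, and for 3 of 13 with shMPZL3 #2, against 18.7%. They lay below all controls for 1 of 13 with shMPZL3 #1, against 22.8%, and for 3 of 13 with shMPZL3 #2, against 17.6%.

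Of the KIF3 motors KIF3C was called higher with both shRNAs, and KIF3A and KIF3B were called lower with shMPZL3 #2 alone. KIF3A pairs with KIF3B or with KIF3C, and KIFAP3 links the pair to cargo. KIF3C (ENSG00000084731, chromosome 2, 25926596 to 25982749) stood at 390, 490.5 and 506 normalized counts in the scr control, at 795, 880 and 1169 with shMPZL3 #1 and at 685, 768 and 934 with shMPZL3 #2. All 6 knockdown libraries lay above all controls and the shRNAs overlapped each other. The log2 fold change was 0.92 ± 0.16 grouped (adjusted p 0.00311), 1.04 ± 0.16 with shMPZL3 #1 (adjusted p 0.000129) and 0.79 ± 0.16 with shMPZL3 #2 (adjusted p 0.00248), and 6 against 3 libraries gave 0.0119 in the exact permutation test. It was called in all 3 comparisons under every alternative run, with adjusted p values up to 0.0343. KIF3C was the 1 transport member called higher with both shRNAs singly, against 6.52% of all genes.

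KIF3B had 1944, 1820 and 1907 normalized counts in the scr control, 1628, 1752 and 1734 with shMPZL3 #1 and 1512, 1598 and 1414 with shMPZL3 #2. The 3 groups did not overlap, and the log2 fold change was -0.15 ± 0.09 (adjusted p 0.235) with shMPZL3 #1 and -0.33 ± 0.09 (adjusted p 0.0242) with shMPZL3 #2. KIF3A had 1363, 1354 and 1266, then 1265, 1531 and 1271, then 927, 1128 and 937, so that it was lower with shMPZL3 #2 alone (-0.41 ± 0.11, adjusted p 0.0180) and was at 0.03 ± 0.11 (adjusted p 0.868) with shMPZL3 #1. The calls with shMPZL3 #2 were lost for both genes without scr control replicate 1 (adjusted p 0.0910 and 0.0631 for KIF3B and KIF3A), scr control replicate 2 (0.0632 and 0.0743), shMPZL3 #2 replicate 1 (0.0580 and 0.0724) and shMPZL3 #2 replicate 3 (0.159 and 0.111), and for KIF3B without scr control replicate 3 (0.0731) and with no low-count filter (0.0545). Per length, KIF3C made up 16.0%, 20.4% and 20.2% of KIF3B and KIF3C together in the scr control, 31.8%, 32.4% and 39.1% with shMPZL3 #1 and 30.2%, 31.4% and 38.6% with shMPZL3 #2. That share follows from the changes of KIF3C and KIF3B already given and is not a separate result. KIFAP3 was at 0.32 ± 0.17 (adjusted p 0.157) with shMPZL3 #1 and -0.21 ± 0.17 (adjusted p 0.441) with shMPZL3 #2, and the difference between the shRNAs was -0.53 ± 0.17 (adjusted p 0.0397).

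**Figure D4:**
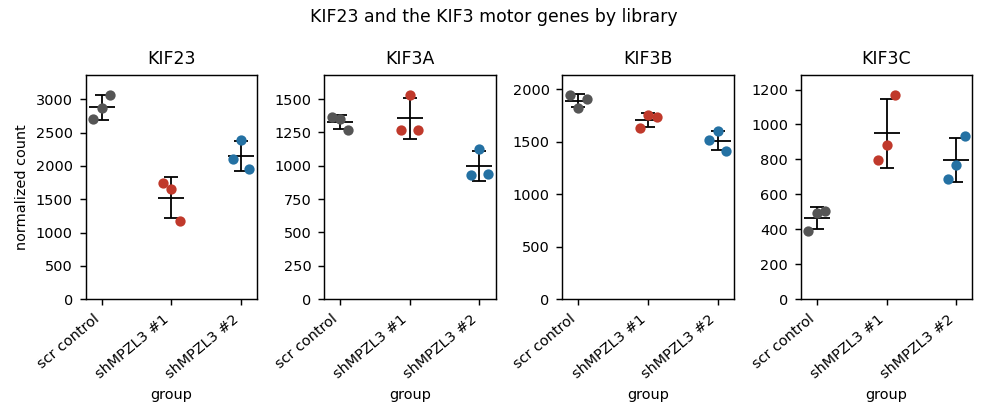
Normalized counts of KIF23, KIF3A, KIF3B and KIF3C by library (points) with the group mean and SD (bars). KIF23 falls from the scr control to both shRNAs without overlap, KIF3C runs from 390 to 506 in the controls and from 685 to 1169 in the knockdown libraries, and KIF3A is low with shMPZL3 #2 alone.

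The other transport motors were called in at most 1 single-shRNA comparison. KIF5B had 6723, 6470 and 6680 normalized counts in the scr control, 6411, 7727 and 6452 with shMPZL3 #1, and 5172, 6083 and 5272 with shMPZL3 #2. No comparison with the control was called (grouped -0.10 ± 0.12, adjusted p 0.619). With shMPZL3 #2 every library lay below every control, at -0.27 ± 0.10 (adjusted p 0.0896). That comparison was called in 3 of the alternatives run, with adjusted p values down to 0.0296. KIF1C, which carries vesicles and RNA to cell protrusions, had 5031, 5665 and 5508, then 7015, 5897 and 7370, then 5784, 4551 and 5335. It rose with shMPZL3 #1 by 0.32 ± 0.11 (adjusted p 0.0343) and was at -0.05 ± 0.11 (adjusted p 0.813) with shMPZL3 #2. That rise was no longer called without any 1 of scr control replicates 1, 2 and 3 (adjusted p 0.150, 0.0657 and 0.0867) or shMPZL3 #1 replicates 1 and 3 (0.0593 and 0.131). KIF1A, a carrier of synaptic and dense-core vesicles in neurons, had 1034, 1248 and 1196, then 1120, 1052 and 1230, then 1472, 1244 and 1696, at 0.34 ± 0.12 (adjusted p 0.0630) with shMPZL3 #2. The remaining 7 members, among them KIF13A, KIF1B and KIF16B, lay between -0.30 and 1.31 grouped with adjusted p values from 0.130 to 0.982, and the upper end was KIF17.

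Partners of the transport motors were called in both directions, with more of them higher. Of 20 tested cargo adaptors and light chains, 1 fell (TRAK1, which links KIF5 to mitochondria) and KLC3, MAPK8IP2 and BICDL1 were among those that rose in the grouped comparison. The shares of all genes were 6.40% called lower and 9.36% called higher, and the median of the 20 was 0.06. With shMPZL3 #1 5% of them were called lower and 30% higher, against 15.3% and 16.8% of all genes. With shMPZL3 #2 the shares were 10% and 20%, against 5.80% and 9.36%. The kinesin light chains KLC1, KLC2 and KLC4, through which KIF5 motors bind cargo, were at 0.14 ± 0.10 (adjusted p 0.381), 0.32 ± 0.12 (adjusted p 0.0861) and 0.04 ± 0.12 (adjusted p 0.832). Exons of KLC1 share 29.9% of their bases with XRCC3, an expressed gene on the opposite strand. Those of KLC3 share 14.6% with ERCC2, and those of KLC4 5.12% with CUL7 and 5.81% with MRPL2. Reads of libraries without strand cannot be told apart there, so the values of KLC1, KLC3 and KLC4 are uncertain. Among 22 tested genes of dynein and dynactin, the motor that runs the other way along microtubules, 1 fell and 3 rose (4.55% and 13.6% of them), against 6.40% and 9.36% of all genes, with a median of -0.03. DYNLRB1, a dynein light chain singled out after its values were seen, rose from 727 ± 11.0 to 2355 ± 94.9 with shMPZL3 #1 and 2112 ± 72.2 with shMPZL3 #2, a grouped log2 fold change of 1.62 ± 0.10 (adjusted p 3.24e-06).

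In the remaining class 1 member fell and 4 rose with shMPZL3 #1, against 15.3% of all genes called lower and 16.8% called higher, and 0 fell and 1 rose with shMPZL3 #2, against 5.80% and 9.36% (0 lower and 2 higher at an unadjusted p under 0.05). KIF21B, a motor that slows microtubule growth, stood at 138, 158 and 165 normalized counts in the scr control, at 171, 252 and 303.6 with shMPZL3 #1, and at 213, 298 and 258 with shMPZL3 #2. The lowest knockdown library lay just above the highest control, and the log2 fold change was 0.70 ± 0.19 grouped (adjusted p 0.0262), 0.66 ± 0.20 (adjusted p 0.0195) and 0.74 ± 0.20 (adjusted p 0.0199). The grouped call was lost without scr control replicate 1, 2 or 3 (adjusted p 0.139, 0.0891 and 0.0685), that with shMPZL3 #1 without scr control replicate 1 or 2 or shMPZL3 #1 replicate 3 (0.0781, 0.0510 and 0.122), and that with shMPZL3 #2 without scr control replicate 1 or 2 or shMPZL3 #2 replicate 2 or 3 (0.0899, 0.0591, 0.0567 and 0.0563). KIF21A, its close relative, was at 0.19 ± 0.10 grouped (adjusted p 0.190).

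KIF2A, a microtubule depolymerase with work both at spindle poles and in neurons, was the 1 member that fell. It had 771, 764 and 763 normalized counts in the scr control, 604, 569 and 558 with shMPZL3 #1 and 691, 776 and 635 with shMPZL3 #2, with -0.41 ± 0.11 (adjusted p 0.00895) for shMPZL3 #1, called under every alternative run, and -0.13 ± 0.11 (adjusted p 0.461) for shMPZL3 #2. Its exons share 8.97% of their bases with IPO11 on the same strand. KIF26B, an atypical member held to lack ATPase activity, had 350, 493 and 566 in the scr control, 784, 849 and 1260 with shMPZL3 #1 and 611, 565 and 602 with shMPZL3 #2, and it rose with shMPZL3 #1 by 1.04 ± 0.18 (adjusted p 0.000348), called under every alternative run. Grouped it missed the threshold (0.73 ± 0.24, adjusted p 0.0556). It passed in 6 of the alternatives run, DESeq2 among them (0.0176), and not in 9, with adjusted p values from 0.000264 to 0.261. KIF12 rose with shMPZL3 #1 by 0.53 ± 0.17 (adjusted p 0.0245) and missed the threshold when scr control replicate 1 or 2 or shMPZL3 #1 replicate 1 was left out (0.0756, 0.122 and 0.0761). KIFC3, a minus-end motor of epithelial junctions, rose by 0.28 ± 0.10 (adjusted p 0.0404) and missed it when scr control replicate 1, 2 or 3 or shMPZL3 #1 replicate 1 or 3 was left out (0.144, 0.104, 0.103, 0.0776 and 0.104) and with no low-count filter (0.0609). KIFC2 was at 0.32 ± 0.13 (adjusted p 0.0717). The 7 others, which include the cilium motors KIF7, KIF24, KIF27 and KIF19, lay between -0.22 and 0.64 grouped, with adjusted p values from 0.190 to 0.652.

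The shRNAs differed from each other in 10 of 38 kinesin genes, against 15.1% of all genes. Of the mitotic class 3 were higher with shMPZL3 #2 than with shMPZL3 #1 (KIF2C, KIF22 and KIF23) and 0 lower, against 7.56% of all genes in each direction, and all 12 differences were above 0, with a median of 0.32 and no overlap between the shRNAs in 5 (15.4% of all genes). At an unadjusted p under 0.05 the numbers were 8 and 0. The count of 3 was 9 without shMPZL3 #1 replicate 1, 0 without shMPZL3 #1 replicate 3, 1 without shMPZL3 #2 replicate 1 and 5 without shMPZL3 #2 replicate 2. In the transport class 3 were lower with shMPZL3 #2 (KIF5B, KIF1C and KIF3A) and 1 higher (KIF1A). The 3 lower calls became 1 without scr control replicate 2 or 3, shMPZL3 #1 replicate 2 or shMPZL3 #2 replicate 1, and 0 without shMPZL3 #2 replicate 3. In the remaining class KIFC3, KIF12 and KIF26B were lower with shMPZL3 #2. Per length, KIF1A stood at 0.106 to 0.113 of the KIF1C level in the scr control, 0.0820 to 0.0917 with shMPZL3 #1 and 0.131 to 0.163 with shMPZL3 #2, ranges that did not overlap. Both genes had been called in opposite directions between the shRNAs, so their ratio is not a separate result. MPZL3 itself was lower with shMPZL3 #1, so that the extent of knockdown and the shRNA used cannot be told apart.

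The makeup of kinesin RNA shifted with these changes. Summed per length, the mitotic kinesins reached 313 ± 15.5 RPKM (SD, n = 3) in the controls, 200 ± 36.5 under shMPZL3 #1 and 251.4 ± 13.4 under shMPZL3 #2, and the 3 groups did not overlap. The transport kinesins summed to 141 ± 1.82, 154 ± 5.68 and 128 ± 2.25, also without overlap, and these sums rest largely on KIF5B and KIF1C. Mitotic members made up 61.1%, 61.9% and 62.4% of all kinesin RNA in the scr control, 53.2%, 48.0% and 42.7% with shMPZL3 #1 and 59.3%, 58.1% and 57.1% with shMPZL3 #2. Transport members made up 27.4% to 28.8%, 33.1% to 40.5% and 28.3% to 30.4%. Every knockdown library had a smaller mitotic share than every control. Without scaling to length the mitotic shares were 48.8%, 34.9% and 44.2% as group means.

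**Figure D5:**
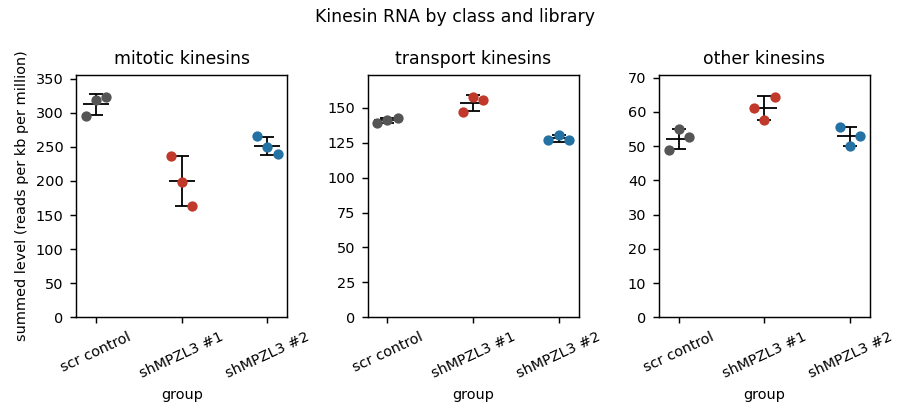
Summed level of the mitotic, transport and other kinesins in RPKM by library (points), with the group mean and SD (bars) and each axis starting at 0. The mitotic sum is 295 to 324 in the scr control, 164 to 237 with shMPZL3 #1 and 239 to 266 with shMPZL3 #2, while the transport sum stays between 127 and 158.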

How the data were processed

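RNA was measured by poly-A RNA-seq in 9 OVCAR4 libraries, 3 for each of 3 groups named by the labels. Per the labels and the study's methods, the authors aligned reads to hg38 with HISAT2 2.0.5, and the deposited values are raw counts per gene; the submitters' processing notes also name featureCounts 1.5.0-p3. The library kit does not mark strand. All 58735 genes matched GENCODE 29 by ID, position and name. Depth was 15040102 to 27835841 counts a library.

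Counts were analysed with edgeR 4.0.16 (R 4.3.3): filterByExpr, which left 16928 genes, TMM factors of 0.983 to 1.03, glmQLFit and glmQLFTest, and Benjamini-Hochberg adjustment over all tested genes with a threshold of 0.05. A fit with 6 knockdown against 3 control libraries gave the grouped comparison, and a fit with 3 groups gave the single-shRNA comparisons and their difference. SE is the size of the log2 fold change over the square root of F. Levels per length used the deposited gene lengths, and log2 CPM a prior count of 2. Exact two-sided permutation tests could reach 0.0119 for 6 against 3 libraries and 0.1 for 3 against 3. The labels do not say that replicates came from separate transductions, so p values measure the spread between these samples. Replicates of every group differed by more than counting noise (chi-square per gene 3.03 to 21.2). The fits were tested on simulated counts. Of genes changed 1.5-fold, 39 of 73 were called in the right direction grouped and 30 of 73 with shMPZL3 #1. At 2-fold it was 49 and 46 of 64. Of 16728 unchanged genes 8 were called in each comparison. Far fewer genes were changed there than were called in the data, 15.8% grouped and 32.0% with shMPZL3 #1. The adjustment was therefore stricter in the simulation, and its shares do not give the share of changes missed in the data.

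The members, classes and gene lists were chosen with earlier results of these data known. Named kinesins were those called in the grouped comparison, with both shRNAs, or between the shRNAs, and the 3 highest per length of the transport and remaining classes; up to 4 partners of each kind were set by name, and the members of a call count of 5 or fewer were named as well. Of 22 cargo partner symbols 21 matched the table and 20 passed the filter. The result of 1 partner gene is not reported here. Alternatives were RLE and upper-quartile scaling, no low-count filter, DESeq2 1.42.0, a replicate block, the mean of both shRNAs, another class assignment, shares without length scaling, and leaving out each library. Same-numbered libraries of different groups correlated at -0.0014 to 0.218 over 9 pairs and other numbers at -0.147 to 0.0671. By these values 8 of 9 libraries were most like those of their own number. The labels do not say what libraries of 1 number share. The main fits did not pair them, and the replicate block was run as an alternative.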

Additional observations from a re-analysis of the deposited data

Results flagged for a closer look

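The test of the difference between the shRNAs passed for 10 kinesin genes, given here as the log2 difference of shMPZL3 #2 minus shMPZL3 #1 with edgeR's adjusted p. Among the mitotic motors KIF2C differed by 0.38 (adjusted p 0.0318), KIF22 by 0.53 (0.0126) and KIF23 by 0.50 (0.0169), each with the lower level in shMPZL3 #1. Among the transport motors KIF5B differed by -0.32 (0.0442), KIF1C by -0.37 (0.0314), KIF3A by -0.44 (0.0121) and KIF1A by 0.38 (0.0419). In the remaining class KIFC3 differed by -0.39 (0.0152), KIF12 by -0.55 (0.0352) and KIF26B by -0.70 (0.0118). All 10 kept their sign under the alternatives run. Without shMPZL3 #1 replicate 3 the adjusted p passed 0.05 for KIF23 (0.0655), KIF22 (0.0625), KIF2C (0.132), KIF1C (0.116), KIF12 (0.0667) and KIF26B (0.0783), and the part of that library was not tested further. KIF22 also missed it without shMPZL3 #2 replicate 1 (0.0823), KIFC3 without shMPZL3 #2 replicates 2 (0.0521) and 3 (0.0729), and KIF3A without shMPZL3 #1 replicate 2 (0.0526) or shMPZL3 #2 replicates 1 (0.0530) and 3 (0.0617). KIF2C, KIF1C, KIF5B, KIF1A and KIF12 missed it without several single libraries, with adjusted p values up to 0.132, 0.116, 0.172, 0.245 and 0.119.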

How the results depend on the processing

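No called result changed sign under any alternative run, and MPZL3 and KIF3C were called in every one. The number of mitotic kinesins called lower with shMPZL3 #1 was 12 throughout. Leaving out 1 library at a time gave 0 to 10 mitotic kinesins called lower grouped (8 with all libraries), 0 to 7 with shMPZL3 #2 (4) and 0 to 9 called higher for shMPZL3 #2 minus shMPZL3 #1 (3). For the transport kinesins it gave 1 to 2 called higher with shMPZL3 #1 (2), 0 to 3 called lower (2) and 1 to 2 called higher (1) with shMPZL3 #2, and 0 to 2 lower (3) and 0 to 1 higher (1) between the shRNAs, and moved their median with shMPZL3 #1 (0.05) between 0.018 and 0.12. Each of these fits has 1 library fewer; over all genes the grouped calls were 625, 962 and 1238 without scr control replicates 1, 2 and 3. With no low-count filter, 7 mitotic kinesins were lower, 1 transport kinesin lower and 2 higher with shMPZL3 #2, and 6 mitotic kinesins were higher between the shRNAs. DESeq2 called 7 mitotic kinesins lower with shMPZL3 #2. Upper-quartile scaling left 0 transport kinesins higher between the shRNAs, and the mean of both shRNAs in the 3-group fit called 1 transport kinesin lower. For these the cause was not tested. With a replicate block, 7 mitotic kinesins were lower and 2 transport kinesins higher with shMPZL3 #2, and 8 mitotic kinesins were higher between the shRNAs. Over all genes the block gave 6355 calls with shMPZL3 #1, 3680 with shMPZL3 #2 and 3823 between them. Without it these were 5423, 2567 and 2559. Grouped it gave 2424 against 2667. The main fits do not take the numbers as pairs, although 8 of 9 libraries correlated best with their own number. The block left the other counts of calls within 1.5 times. Without length scaling the mitotic share of kinesin RNA was 48.8%, 34.9% and 44.2% in the scr control, shMPZL3 #1 and shMPZL3 #2, and with KIF2A counted as mitotic and KIFC2 and KIFC3 as transport it was 63.4% and 59.8% in the scr control and shMPZL3 #2. Depth limits KIF17, KIF5A and KIF5C, with at most 33, 43 and 59 counts a library.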
